A study of Mus musculus with 27 samples.

Results

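Mouse retina at postnatal day 60 (P60) was compared with retina at postnatal day 28 (P28). The comparison used 10 of the 27 RNA-seq libraries of a developmental series, namely the 4 labelled P28 and the 6 labelled P60, and it described genes that lay to one side of P28 in every P60 library and genes that varied widely among the P60 libraries. Both groups were whole retinas of wild type C57BL/6J mice, an inbred laboratory strain, with no transgene or treatment. According to the study's methods, males were used after birth and each P28 library was a pool of several mice. At P60, 2 libraries were pools of 3 mice and 4 came from individual mice. The labels give 3 retinas for every library and do not say which P60 libraries were the pools, so the spread at P60 mixes pools and single animals.

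By P28 the mouse retina has all its cell types and responds to light. Rods, which are by far the most numerous cells, and cones convert light into an electrical signal through opsins, transducin, phosphodiesterase and ion channels. Bipolar, amacrine and horizontal cells process the signal, ganglion cells send it to the brain, and Müller glia span the tissue. Neurons are no longer born, while the animal grows from a juvenile into a young adult.

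Values were in cpm, which scales the reads of a feature to the same total in every library. Each value was a whole number of steps of equal size, 1 read a step, and the steps gave 7120483 to 7954035 reads in a P28 library, with a median of 7446921, and 7099962 to 9050760 in a P60 library, with a median of 7796794. A single read was worth 0.110 to 0.141 cpm. The labelled tissue was borne out by Sag, the arrestin of rods, which stood at 1463 to 1568 cpm at P28 and 1632 to 2015 cpm at P60. Markers of lens summed to 5.90 to 11.9 cpm over 6 measured genes in any of the 10 libraries, and those of the retinal pigment epithelium (RPE), the layer next to the retina, to 77.8 to 152 cpm over 15 genes. Because whole tissue was measured, fewer cells of a type and less RNA per cell cannot be told apart in any value given here.

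The P60 libraries fell into unlike sets before any gene was tested. Over 12219 genes with a known transcript sequence and a mean of at least 5 cpm, libraries were compared with the P28 mean on the log2(cpm + 1) scale after the genes were sorted into 5 equal groups by the GC content of the transcript. The median difference in the group richest in GC minus that in the poorest was -0.04 in P60 replicate 1 and -0.09 in replicate 2, next to -0.04 to 0.06 in the 4 P28 libraries. It was 0.76, 0.58, 0.72 and 0.44 in P60 replicates 3, 4, 5 and 6. Of these genes, 45.1% in replicate 1 and 51.1% in replicate 2 lay outside the range of the P28 libraries, against 75.7%, 70.1%, 74.6% and 65.8% in replicates 3 to 6. The range of only 4 libraries would leave many genes of a further P28 library outside it too. These shares therefore compare the P60 libraries with one another and do not count genes that differ from P28. Transcript levels in replicates 3 to 6 were therefore tilted towards genes rich in G and C. The part of this tilt in the results that follow was not tested beyond the values without those libraries and with a correction for GC content and transcript length, which are given beside the gene lists and many of the genes.

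**Figure D1:**
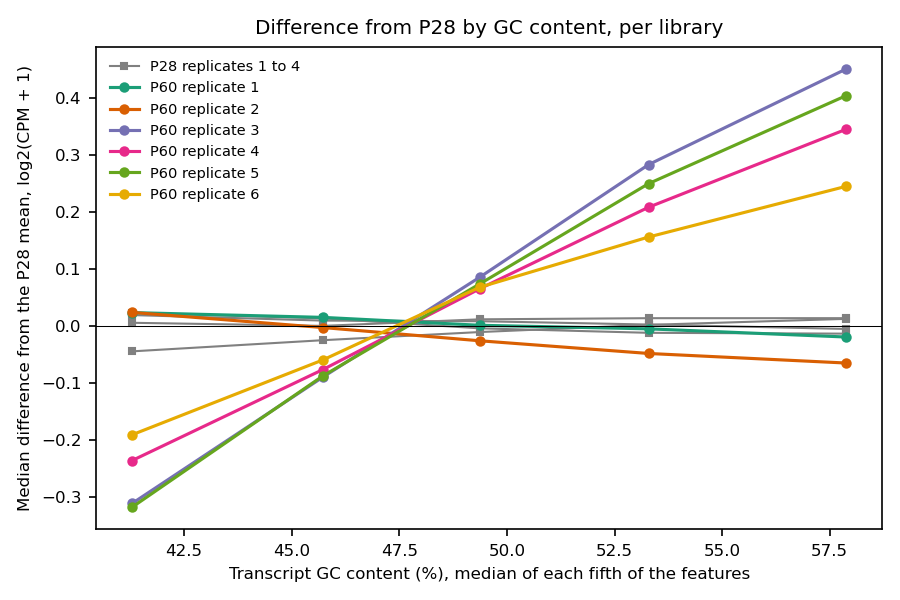
Median difference of each library from the P28 mean, in log2(cpm + 1), for 5 groups of genes of rising transcript GC content (x axis, median percent of each group), with one line per library. P60 replicates 1 and 2 run flat with the 4 P28 libraries, whereas replicates 3 to 6 climb from the GC-poor to the GC-rich genes by 0.44 to 0.76.

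Coding sequence is shown for 4 genes whose whole transcripts lie at the ends of this range. These genes were chosen for their GC content and their spread at P60 after the values were seen. Each line gives 120 bases of coding sequence, 5′ to 3′ on the strand of the gene, with G and C in capitals, from the GENCODE M21 transcripts of GRCm38. Fut9, a fucosyltransferase (whole transcript 35.0% G or C, window chr4:25620214-25620333, minus strand), and Naa50, an N-terminal acetyltransferase (37.2%, window chr16:44159490-44159609, plus strand), are poor in G and C. Ppp1r12c, a regulatory subunit of protein phosphatase 1 (62.6%, window chr7:4501372-4501491, minus strand), and Klc3, a kinesin light chain (63.0%, window chr7:19399352-19399471, minus strand), are rich.
Fut9: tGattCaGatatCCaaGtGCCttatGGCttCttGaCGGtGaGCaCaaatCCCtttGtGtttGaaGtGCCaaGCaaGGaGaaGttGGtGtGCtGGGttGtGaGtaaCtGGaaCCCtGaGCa
Naa50: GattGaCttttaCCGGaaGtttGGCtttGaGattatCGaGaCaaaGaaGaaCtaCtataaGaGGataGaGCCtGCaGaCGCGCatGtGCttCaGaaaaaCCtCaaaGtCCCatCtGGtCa
Ppp1r12c: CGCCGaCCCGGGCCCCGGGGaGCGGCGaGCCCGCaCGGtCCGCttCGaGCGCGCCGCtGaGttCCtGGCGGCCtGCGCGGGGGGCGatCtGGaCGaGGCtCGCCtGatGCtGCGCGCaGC
Klc3: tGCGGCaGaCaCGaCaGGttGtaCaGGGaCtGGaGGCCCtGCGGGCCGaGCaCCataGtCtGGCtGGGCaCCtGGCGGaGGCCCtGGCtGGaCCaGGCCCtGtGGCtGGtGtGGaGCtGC
The windows hold 57, 52, 95 and 83 G or C of 120 bases, in the order given. These shares of 47.5%, 43.3%, 79.2% and 69.2% are each above that of the whole transcript. The Fut9 window is therefore not itself at the poor end of the range. Fut9 stood at 48.9, 47.5, 44.5 and 39.0 cpm at P28 and at 43.9 and 43.1 cpm in P60 replicates 1 and 2, but at 17.2, 23.9, 21.2 and 23.3 cpm in replicates 3 to 6. Ppp1r12c went the other way, with 51.8 to 56.1 cpm at P28, 45.2 and 56.3 cpm in P60 replicates 1 and 2, and 113, 88.0, 102 and 77.4 cpm in replicates 3 to 6. Naa50 and Klc3 followed the gene of like composition, Naa50 with 53.8 to 59.8 cpm in replicates 1 and 2 and 20.2 to 29.6 cpm in replicates 3 to 6, and Klc3 with 43.3 to 44.2 cpm and 70.2 to 118 cpm.

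Across the transcriptome, few features differed strongly between the ages. Of 31760 features that reached 1 cpm in 3 or more libraries of the series, 144 (0.453%) passed an adjusted p of 0.05 with a change of at least 1 on the log2(cpm + 1) scale, 24 of them higher (0.0756%) and 120 lower (0.378%) at P60 (limma fitted to all 27 libraries, Benjamini-Hochberg adjusted, two-sided). Most of the lower ones, 89, were transcripts without a Gene ID, and among the 19913 features with a Gene ID 22 were higher and 31 lower. Without the minimum fold change 4100 features passed (12.9%), with 1524 higher (4.8%) and 2576 lower (8.11%). The share of higher features among these was 37.2%, and it was 51.6% after median-of-ratios scaling, with 31.2% in place of 16.7% among the 144. The split between higher and lower features thus depended on the scaling. It also depended on the kind of feature. Of the 4100, those with a Gene ID were 1374 higher and 1331 lower, and those without were 150 higher and 1245 lower.

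That fit takes the spread of a gene from all ages, and the P60 libraries spread more than the others. The median SD over features was 0.262 at P60 and 0.136 at P28 on the log2(cpm + 1) scale. With the spread taken from the 10 libraries alone, 7 features passed an adjusted p of 0.05 (0.022%), while 5768 had an unadjusted p under 0.05 (limma). The 7 were Itsn2, Chst3, Sgk1, Hdc, and the transcripts ENSMUST00000038304 and AK044681, all higher at P60, and AK141397, which was lower. Sgk1 was the only one of the 7 that belongs to a gene list given below, so no other list member passed in that fit. The count of 144 changed features also moved with the P60 libraries used: it was 1165 without replicates 1 and 2 and 30 without replicates 3 to 6.

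A stricter reading kept features with an adjusted p under 0.05 whose 6 P60 values all lay above, or all below, the 4 P28 values. There were 1040 (3.27%), with 468 above (1.47%) and 572 below (1.8%). Whatever the p, the groups of 1313 features (4.13%) did not overlap. The 1040 also differed in composition, with a median transcript GC content of 53.1% for those above and 44.6% for those below, next to 49.7% for all genes with a sequence. With the correction for GC content and length, which could be made for 17745 features, 421 lay above and 320 below in place of 432 and 332, and 251 and 184 were found with and without it. Leaving out each library in turn kept the call of 530 of the 1040, and 47 of these 530 were called both without P60 replicates 1 and 2 and without replicates 3 to 6.

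Of the genes that lay higher in every P60 library, Hdc, Sgk1, Chst3 and Itsn2 also passed with the spread of the 10 libraries alone. Hdc, the decarboxylase that makes histamine from histidine (GRCm38 chr2:126593667-126619299, minus strand), stood at 5.73, 8.0, 7.17 and 13.6 cpm at P28 and at 27.5, 22.3, 23.6, 26.5, 20.2 and 20.6 cpm at P60. The groups did not overlap, and no P60 library stood apart. The mean rose 2.72-fold, with a log2 fold change of 1.398 (SE 0.17, adjusted p = 2.3e-05, limma). The change was 1.48 with P60 replicates 1 and 2 only (adjusted p = 0.00056, limma) and 1.36 with replicates 3 to 6 only (adjusted p = 1.7e-06, limma). With the spread of the 10 libraries alone the adjusted p was 0.031 (limma). Genes named as shifted in all P60 libraries were chosen because every P60 value lay to one side of P28. Their direction in either set of P60 libraries was therefore fixed, and the values by set describe size and are no added support.

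Sgk1, a kinase first known for its induction by serum and glucocorticoids (chr10:21882184-21999903, plus strand), stood at 62.4, 67.5, 65.5 and 92.1 cpm at P28 and at 131, 135, 145, 128, 124 and 111 cpm at P60. It rose 1.80-fold (log2 fold change 0.85, SE 0.17, adjusted p = 0.0042, limma), and the change was 0.90 with P60 replicates 1 and 2 only (adjusted p = 0.052, limma). Chst3, a sulfotransferase of chondroitin sulfate chains in the extracellular matrix (chr10:60181532-60219260, minus strand), had tight P28 values of 69.3, 71.8, 72.0 and 71.1 cpm and P60 values of 109, 101, 137, 125, 127 and 122 cpm. Its log2 fold change was 0.74 (SE 0.10, adjusted p = 6.8e-05, limma), and replicates 3 to 6 were all above replicates 1 and 2, which alone gave 0.55 (adjusted p = 0.017, limma). Itsn2, an endocytic scaffold protein (chr12:4592638-4713962, plus strand), was nearly even at both ages, with 304 to 357 cpm at P28 and 438 to 477 cpm at P60. The log2 fold change of Itsn2 was 0.45 (SE 0.07, adjusted p = 0.00029, limma) and was 0.43 with P60 replicates 1 and 2 only and 0.46 with replicates 3 to 6 only.

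Among the 12 named genes with the largest rises, low-abundance transcripts prevailed. Lpar3, a receptor for lysophosphatidic acid, rose most, from 0.880 to 1.62 cpm at P28 to 3.80 to 9.20 cpm at P60 (log2 fold change 1.46, SE 0.27, adjusted p = 0.0024, limma), and replicates 5 and 6 held the highest values, 9.20 and 8.57 cpm. With P60 replicates 1 and 2 only the difference in Lpar3 was 1.05 (adjusted p = 0.13, limma). Rimbp3, a relative of synaptic RIM-binding proteins, rose from 2.40 to 4.02 cpm to 5.76 to 10.3 cpm, and Isyna1, which makes inositol phosphate from glucose phosphate, from 1.89 to 3.52 cpm to 5.51 to 7.60 cpm. Bst1, an ectoenzyme acting on NAD, rose from 3.86 to 6.54 cpm to 9.61 to 12.7 cpm, and Fermt3, the integrin activator kindlin-3 of blood cells, from 3.46 to 4.21 cpm to 6.37 to 10.7 cpm. Rimbp3, Isyna1, Bst1 and Fermt3 were called in each set of P60 libraries, at adjusted p values of 0.0023, 0.011, 0.04 and 0.044 with replicates 1 and 2 only (limma). Bst1 and Fermt3 overlap genes on the other strand (Fbxl5 and Trpt1), and whether counting used the strand is not given in the sources used here.

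The other 7 of these 12 were Fam107a, an actin-associated stress protein, Vgf, a precursor of secreted neuropeptides, Lgals4, a galectin, the kinase gene Alpk2, and the transcripts Nlrp5-ps and Dbhos besides Hdc. Fam107a rose from 3.11 to 6.53 cpm at P28 to 8.13 to 19.2 cpm at P60, and Vgf from 10.4 to 14.2 cpm to 17.6 to 32.4 cpm. Both were highest in replicate 5, and with P60 replicates 1 and 2 only their log2 fold changes were 0.72 (adjusted p = 0.15, limma) and 0.64 (adjusted p = 0.14, limma). Lgals4 depended more on replicates 3 to 6, which held 12.1 to 21.6 cpm next to 8.92 and 7.75 cpm in replicates 1 and 2 and 5.01 to 7.17 cpm at P28. Alpk2, with 3.79 to 6.54 cpm at P28 and 6.86 to 19.95 cpm at P60, was called in each set. Nlrp5-ps, a pseudogene, had 0.983 to 2.64 cpm at P28 and 3.80 to 7.62 cpm at P60, and Dbhos, annotated as antisense, had 3.20 to 5.28 cpm and 7.34 to 13.7 cpm.

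Some larger genes lay above P28 in all 6 libraries but mainly through replicates 3 to 6. Plxnb1, a semaphorin receptor with a GC-rich transcript (57.6%), stood at 70.3 to 77.8 cpm at P28, at 95.9 and 88.0 cpm in P60 replicates 1 and 2, and at 206, 174, 185 and 155 cpm in replicates 3 to 6. Its log2 fold change of 0.94 (SE 0.15, adjusted p = 0.00056, limma) was 0.30 with replicates 1 and 2 only (adjusted p = 0.071, limma). Pkd1, the polycystin membrane protein of cilia, had the same pattern, with 102 to 114 cpm at P28, 117 and 119 cpm in replicates 1 and 2, and 206 to 264 cpm in the rest. Ahrr, the repressor of the aryl hydrocarbon receptor, showed the reverse order, with 90.9 and 83.5 cpm in replicates 1 and 2 and 64.9, 54.5, 83.5 and 58.4 cpm in replicates 3 to 6, all above the 38.0 to 50.03 cpm of P28 (log2 fold change 0.73, SE 0.16, adjusted p = 0.0064, limma).

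**Figure D2:**
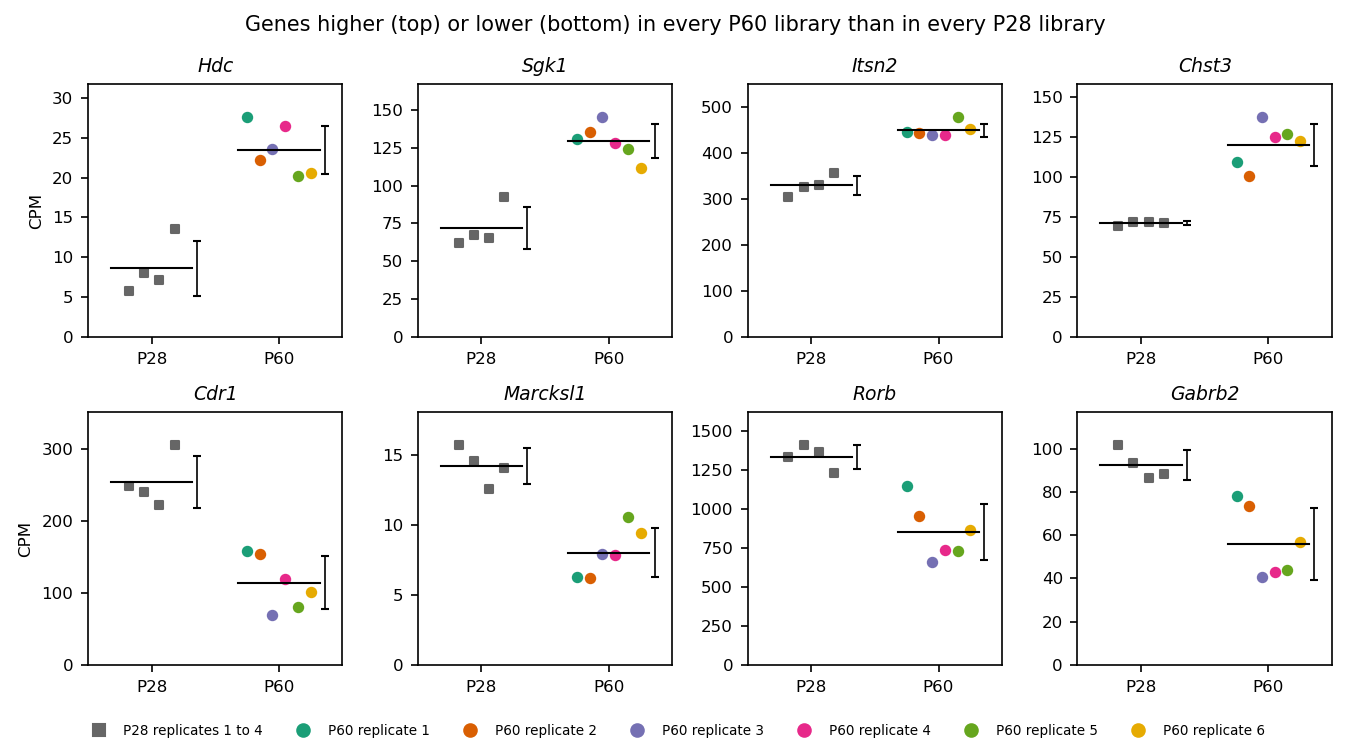
Cpm of 8 genes in each P28 library (squares) and each P60 library (circles, one color per replicate), with horizontal lines at the group means and bars of ± 1 SD. In all 8 panels the P60 values lie on one side of the P28 values, Hdc, Sgk1 and Itsn2 with little difference between P60 replicates, and Cdr1, Rorb and Gabrb2 with replicates 3 to 6 below replicates 1 and 2.

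Of the genes that lay lower in every P60 library, Cdr1, Marcksl1 and Rorb were called in each set of P60 libraries. Cdr1 (chrX:61184005-61185558, minus strand) fell most of the 12 named falls, from which predicted genes and genes named Rik are left out (4833408G04Rik, with a log2 fold change of -1.58, is one), and went from 249, 241, 223 and 306 cpm at P28 to 158, 155, 69.8, 119, 81.0 and 102 cpm at P60. Its log2 fold change was -1.21 (SE 0.16, adjusted p = 8.5e-05, limma), -0.69 with replicates 1 and 2 only (adjusted p = 0.0079, limma) and -1.10 with the GC correction. C230004F18Rik is annotated on the other strand of this locus, and the sources used here do not say whether counting separated the strands. Marcksl1, an actin and calmodulin binding protein of growing neurons (chr4:129513581-129515985, plus strand), fell from 15.7, 14.6, 12.6 and 14.1 cpm to 6.29, 6.20, 7.90, 7.84, 10.6 and 9.43 cpm. Its transcript is rich in G and C (58.2%), it was lowest in P60 replicates 1 and 2, and the change of -0.77 (SE 0.10, adjusted p = 5.5e-05, limma) was -0.98 with the GC correction.

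Rorb, a nuclear receptor needed for rod and horizontal cell development (chr19:18930605-19111196, minus strand), was far more abundant. It stood at 1336, 1410, 1367 and 1229 cpm at P28 and at 1148, 957, 663, 740, 734 and 863 cpm at P60, with replicates 1 and 2 nearest to P28. The log2 fold change was -0.67 (SE 0.09, adjusted p = 6.8e-05, limma) and was -0.35 with replicates 1 and 2 only (adjusted p = 0.0082, limma). Gabrb2, a subunit of the GABA-A receptor, fell from 86.2 to 102 cpm to 78.0, 73.7, 40.7, 42.8, 43.7 and 56.6 cpm (log2 fold change -0.76, SE 0.14, adjusted p = 0.0023, limma), and with replicates 1 and 2 only the difference was -0.28 (adjusted p = 0.32, limma).

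The other named falls were of low genes or leaned on replicates 3 to 6. Ndufs5, a subunit of mitochondrial complex I, fell from 4.77 to 9.43 cpm to 1.71 to 4.31 cpm, with no order between the P60 sets (log2 fold change -0.85 in all and -0.86 with replicates 1 and 2 only, adjusted p = 0.012 and 0.11, limma). Mctp1, a calcium-binding membrane protein, fell from 6.60 to 8.42 cpm to 1.004 to 4.67 cpm, and Lgi1, a secreted synaptic protein, from 8.13 to 9.83 cpm to 3.30 to 7.32 cpm. Kcnq1ot1, a long nuclear RNA antisense to Kcnq1, stood at 86.5 to 94.5 cpm at P28 and just below in P60 replicates 1 and 2 (85.6 and 79.7 cpm), but at 28.9, 47.2, 46.7 and 60.8 cpm in replicates 3 to 6. Gpr21, an orphan receptor gene that lies inside Rabgap1 on the same strand, had 26.4 to 36.5 cpm at P28, 26.1 and 24.8 cpm in P60 replicates 1 and 2, and 7.40 to 21.9 cpm in the rest. Wdr27, Pcdhb4, a protocadherin, Ncapg, a condensin subunit, and Dpy30, a subunit of histone methyltransferase complexes, completed the 12, with log2 fold changes of -0.72, -0.71, -0.72 and -0.73. The last was lost with the GC correction (-0.51, adjusted p = 0.074, limma) and in 5 of the 10 fits that left out a library. Ndufs5 was lost without P28 replicate 4 (adjusted p = 0.051, limma) and Ncapg without P28 replicate 1 (adjusted p = 0.059, limma).

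Of the 47 features called in each set of P60 libraries, 20 were higher and 27 lower, and 40 had a Gene ID. They were selected on these same values, so they are given as a description. Besides the genes above, those higher at P60 included Trim17, a ubiquitin ligase (34.7 to 47.0 cpm at P28 and 59.3 to 107 cpm at P60), Hist3h2a, a histone (49.5 to 61.3 and 80.5 to 131 cpm), Dnah7b, an axonemal dynein (104 to 109 and 129 to 163 cpm), and Diaph3, a formin that assembles actin (54.1 to 63.1 and 76.2 to 85.8 cpm). The lower ones included Ndnf, a secreted neuronal factor (373 to 401 and 300 to 322 cpm), Slc25a4, the mitochondrial ADP/ATP carrier (208 to 230 and 162 to 175 cpm), Tet1, which oxidizes 5-methylcytosine (64.4 to 72.0 and 48.8 to 57.2 cpm), Pcdh17, a protocadherin (62.9 to 72.7 and 47.2 to 55.7 cpm), and Mapre1, a microtubule end-binding protein (30.4 to 40.9 and 23.1 to 29.7 cpm). Trim17 and Hist3h2a had log2 fold changes of 0.92 and 0.79 and were highest in P60 replicates 3 and 4, at 107 and 87.4 cpm and at 131 and 110 cpm. The log2 fold changes of the other 7 ranged from -0.45 to 0.51. The GC correction could be made only for features with a Gene ID, so for at most 40 of the 47. With it, 29 were still called with groups that did not overlap. Ndnf, Mapre1 and Alpk2 were not among these 29.

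Several shifts continued a course from earlier ages, which the rule for choosing them did not use. Hdc had a mean of 2.37 ± 0.298 cpm over the 4 libraries of P15 (SD) and under 0.3 cpm from E14 to P6, and mean Sgk1 was 16.9 cpm at P15 and 4.93 cpm at P6, so both were higher at each age from P6 on. These courses are descriptions and were not tested here. Itsn2 was higher at every step, from 53.2 cpm at E14 to 252 cpm at P15, 329 cpm at P28 and 450 cpm at P60. Marcksl1 was lower at every step, from 325 cpm at E14 to 37.9 cpm at P15 and 8.04 ± 1.72 cpm (SD) over the 6 libraries of P60. In contrast, Cdr1 and Gabrb2 had their highest means, 286 and 98.99 cpm, at P15 and were lower at P60, and Plxnb1, at 144 cpm at E14 and 72.5 cpm at P15, was back at 151 cpm at P60 through replicates 3 to 6. The P28 mean enters both the P60 comparison and these courses.

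**Figure D3:**
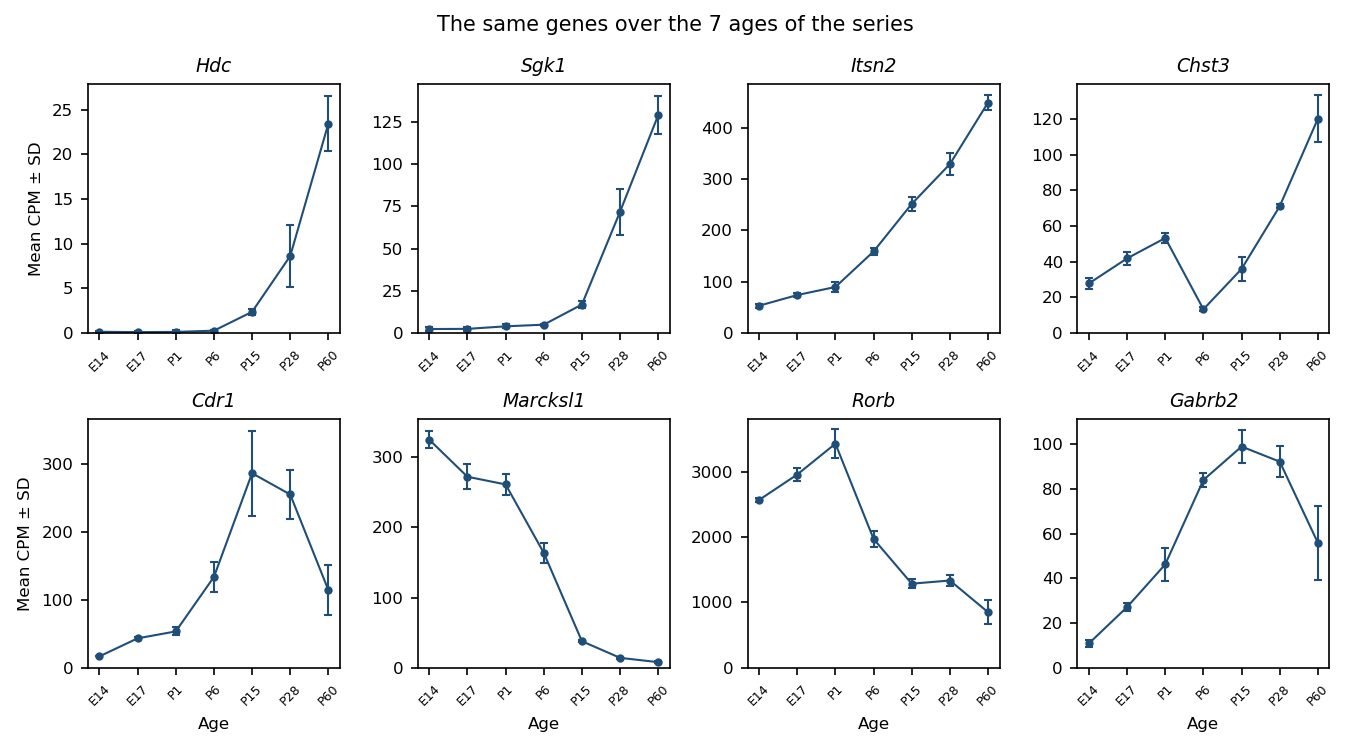
Mean cpm ± SD at E14, E17, P1, P6, P15, P28 and P60 (3 to 6 libraries an age) for the same 8 genes, each on its own axis from 0. Hdc, Sgk1 and Itsn2 are highest at P60, Marcksl1 goes from 325 to 8.04 cpm, and Cdr1 and Gabrb2 peak at P15.

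Some photoreceptor genes passed the test, which 12.9% of all features passed. Of 20 tested genes of rod phototransduction and the outer segment, 2 were higher and 1 was lower, and of 16 cone genes 3 were higher and 1 was lower. List medians were 0.12 and 0.15, next to -0.06 over all features (background 4.8% higher and 8.11% lower). That background, also used for the lists below, includes transcripts without a Gene ID, which leaned lower. Among the 19913 features with a Gene ID, 1374 were higher and 1331 lower, with a median of 0.005. Without P60 replicates 3 to 6, 0 of either list passed in limma (2 rod and 0 cone genes at an unadjusted p under 0.05), at list medians of 0.01 and 0.01, next to 0.202% of all features higher and 0.264% lower. With the GC correction 1 rod gene was higher and 0 were lower (7 at an unadjusted p under 0.05, limma), and the cone counts were again 3 and 1 (all features with a GC value 5.83% higher and 5.1% lower). Sag rose between the values given above, and Grk1, a kinase that helps to end the light response, rose from 1575 to 1758 cpm to 1849 to 2451 cpm. Pdc, phosducin, which binds transducin subunits, fell from 1486 to 1912 cpm to 992 to 1411 cpm (log2 fold change -0.53, SE 0.09, adjusted p = 0.0013, limma), and was -0.25 with the GC correction (adjusted p = 0.054, limma). Among cone genes Arr3, cone arrestin, rose from 149 to 173 cpm to 181 to 247 cpm in all P60 libraries, whereas Gnb3, a cone transducin subunit, lay at 93.0 and 84.8 cpm in P60 replicates 1 and 2, inside or below the P28 range of 90.1 to 107 cpm, and at 179 to 240 cpm in the rest. The cone opsin genes Opn1sw and Opn1mw had log2 fold changes of 0.15 and 0.21 (adjusted p = 0.44 and 0.41, limma).

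Markers of inner retinal neurons gave 11 calls lower at P60 and 1 higher, next to 8.11% of all features lower and 4.8% higher. Of the 19913 features with a Gene ID, 1331 were lower and 1374 higher. Of 14 tested markers of each class, 4 ganglion cell markers were lower (Rbpms, Sncg, Slc17a6 and Ebf3), 4 amacrine and horizontal cell markers were lower (Tfap2a, Tfap2b, Onecut1 and Onecut2) and 1 higher (Slc6a9), and 3 bipolar cell markers were lower, among them Isl1 and Lrtm1. List medians were -0.16, -0.25 and -0.01. After median-of-ratios scaling 2 markers of each class were lower (all features 6.19% lower and 6.59% higher), and the bipolar median was 0.06. With the GC correction 6, 5 and 3 were lower, next to 5.1% of all features with a GC value. Without P60 replicates 3 to 6 the limma calls were 0 ganglion cell, 0 amacrine and horizontal cell and 1 bipolar cell marker, with 5, 4 and 3 markers at an unadjusted p under 0.05. In that fit 0.264% of all features were lower. With the spread of the 10 libraries alone, 0 markers of these 3 classes passed (limma). Isl1, a transcription factor of ganglion and ON bipolar cells, fell in every P60 library, from 108 to 136 cpm to 73.1 to 99.6 cpm (log2 fold change -0.47, SE 0.09, adjusted p = 0.0024, limma). Tfap2b, an amacrine transcription factor, fell from 223 to 269 cpm to 165 to 212 cpm (-0.43, SE 0.08, adjusted p = 0.0026, limma), and Rbpms, an RNA-binding protein of ganglion cells, from 40.7 to 46.7 cpm to 34.6 to 38.6 cpm (-0.22, SE 0.07, adjusted p = 0.034, limma). The summed levels of the 3 lists overlapped between the ages.

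Glial, vascular and immune markers gave no call in limma before any correction or scaling. Of 14 Müller glia markers, 13 vessel markers, 11 microglia markers and 8 oligodendrocyte markers, 0 passed, while 2, 4, 3 and 1 had an unadjusted p under 0.05, and edgeR called 1 Müller marker. The same held for 17 genes of glial stress and the acute phase (0 passed, 2 at an unadjusted p under 0.05, 0 by edgeR). Lens (6 tested), blood (4) and skeletal muscle (5) also gave 0 calls, with 0 at an unadjusted p under 0.05 and 0 by edgeR, and for cornea, conjunctiva and iris (6 tested) limma gave 0 at either level and edgeR 1. Of 15 RPE markers only Slc45a2, a pigment cell transporter, was lower, at 0.562 to 1.26 cpm at P28 and 0 to 0.422 cpm at P60. Blood markers summed to 43.0 cpm in P60 replicate 1 and 19.9 to 25.4 cpm in the other P60 libraries. With the GC correction limma called 1 Müller marker and 1 vessel marker lower, and 1 oligodendrocyte marker and 1 glial stress gene higher. It called 0 microglia markers, next to 5.83% of all features with a GC value higher and 5.1% lower. After median-of-ratios scaling 1 Müller marker and 1 glial stress gene were higher.

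Clock and heat shock genes gave a few calls, in part through replicates 3 to 6 alone. Of 22 clock genes, Per1 and Nr1d1 were higher and Clock, Rora and Rorb lower, next to the background of 4.8% higher and 8.11% lower. With the GC correction 2 were higher and 5 lower. Per1, a light- and hormone-responsive repressor of the clock, lay at 49.8 and 49.0 cpm in P60 replicates 1 and 2, within the P28 range of 41.4 to 54.5 cpm, and at 84.5 to 102 cpm in replicates 3 to 6. Its log2 fold change was 0.58 in all libraries (SE 0.16, adjusted p = 0.02, limma) and -0.02 with replicates 1 and 2 only. Rorb was the only clock gene called without replicates 3 to 6. Of 13 heat shock genes 3 were higher, among them the chaperone Hspa1a, at 11.3 to 13.5 cpm at P28 and 16.2 to 24.8 cpm at P60, and 0 were called in limma without replicates 3 to 6 (1 at an unadjusted p under 0.05). With the GC correction 1 heat shock gene was higher. Of 21 immediate early genes Nr4a3 was higher and Egr2 lower, shares near or below the background, and Fos stood at 8.04 to 17.6 cpm at P28 and 9.20 to 17.6 cpm at P60.

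A list of 19 tested glucocorticoid-responsive genes had 7 higher and 0 lower, with a median of 0.35. Over all features 4.8% were higher and 8.11% lower, and of the 19913 with a Gene ID 1374 were higher and 1331 lower. The list was drawn up after Sgk1 and Fam107a had been seen, and both are among the 7, so it is no independent evidence. Its members differed in pattern. Sgk1 was even across P60 libraries, whereas Zbtb16, a zinc finger repressor, stood at 9.93 to 12.4 cpm at P28, at 13.1 to 16.1 cpm in P60 replicates 1 to 4, and at 49.9 and 25.2 cpm in replicates 5 and 6. Arrdc2, an arrestin-like protein, lay at 6.82 and 6.34 cpm in replicates 1 and 2 next to 4.53 to 7.58 cpm at P28, and at 14.1, 15.1, 25.7 and 18.5 cpm in replicates 3 to 6. Without replicates 3 to 6, 0 of the 19 passed in limma (3 at an unadjusted p under 0.05), at a list median of 0.03. With the GC correction 6 were higher, next to 5.83% of all features with a GC value. The summed level of the list was 413 to 431 cpm at P28, 475 and 482 cpm in P60 replicates 1 and 2, and 556 to 642 cpm in replicates 3 to 6.

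The other lists, of matrix, immune, hormone, cholesterol and nuclear RNA genes, gave 2 to 4 calls each. They are to be read against the background of 4.8% higher and 8.11% lower, or 1374 and 1331 of the 19913 features with a Gene ID. Of 20 collagen and basement membrane genes 4 were higher (Col4a2, Col5a1, Fn1 and Hspg2), of 13 interferon and antigen presentation genes 4 (Stat2, H2-K1, H2-D1 and Ifi27), and of 20 thyroid hormone genes 3 (Thra, Slc7a5 and Rxrb). These 11 were not called in limma without P60 replicates 3 to 6, where 3, 2 and 1 genes of the lists had an unadjusted p under 0.05 and the list medians were -0.09, 0.01 and -0.02 in place of 0.32, 0.10 and 0.08, while 1 other collagen and basement membrane gene was lower there. With the GC correction the calls were 1 higher and 1 lower for collagen and basement membrane, 1 higher for interferon and antigen presentation, and 0 for thyroid hormone genes (5 at an unadjusted p under 0.05, limma). Thra, the gene of thyroid hormone receptor alpha, lay at 219 and 229 cpm in P60 replicates 1 and 2, within 219 to 232 cpm at P28, and at 288 to 342 cpm in the rest. Of 20 cholesterol synthesis genes Hmgcs1 and Cyp51 were lower, a share near the background, Hmgcs1 in every P60 library (74.96 to 95 cpm at P28 and 59.7 to 72.0 cpm at P60), and after median-of-ratios scaling 0 were called in limma (2 at an unadjusted p under 0.05), as with the GC correction (9 at an unadjusted p under 0.05), while edgeR called 1. Of 12 long nuclear RNAs Malat1, Kcnq1ot1 and Gas5 were lower, Malat1 from 11625 to 12849 cpm to 7643 to 12771 cpm. The list median was nonetheless 0.11. Median-of-ratios scaling gave 2 lower and 1 higher, the GC correction 1 lower and 3 higher, and the fit without P60 replicates 3 to 6 gave 0 calls in limma, with 0 at an unadjusted p under 0.05.

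**Figure D4:**
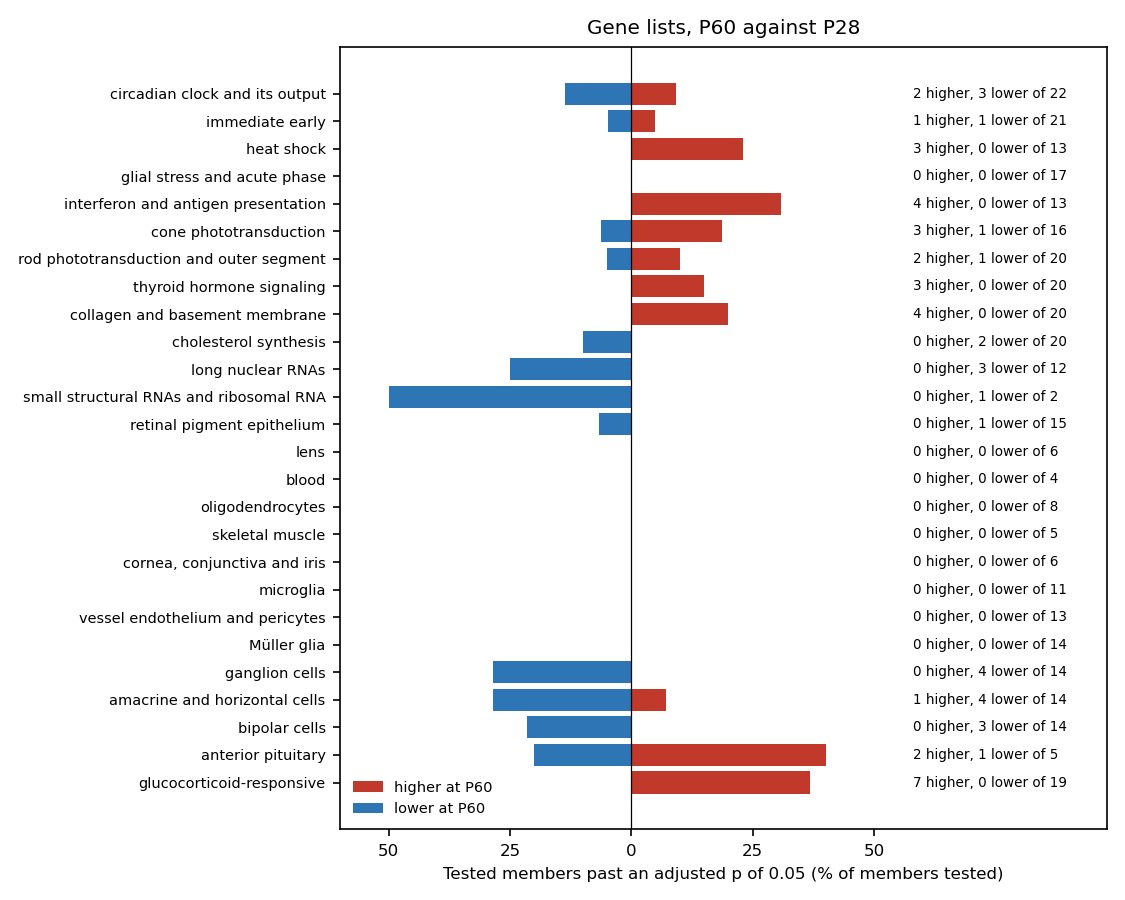
Share of the tested members of each list that were higher (right) or lower (left) at P60 at an adjusted p under 0.05, in percent, with the counts at the right. Inner retinal neuron lists point left, the matrix, interferon and glucocorticoid-responsive lists point right, and lens, blood, glial and vessel lists have no bar.

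Spread among the P60 libraries was wide and patterned. Of 17165 features with a mean of at least 5 cpm at P60, 2211 (12.9%) had an SD of at least 0.5 on the log2(cpm + 1) scale, against 48 at P28. Of them 1507 had no Gene ID. P60 replicate 3 held the lowest value for 1627 of the 2211 (73.6%), and replicates 1 and 2 the highest for 954 and 817. Among those with a known transcript, the GC content had a median of 42.0% for the 171 lowest in replicate 3 and of 56.7% for the 90 highest there. Among features with a GC value, the GC correction left 232 wide features in place of 421. Over all features, 312 were wide without replicates 3 to 6, in place of 2211.

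The widest feature of all was Rn18s, the 18S ribosomal RNA. It stood at 203, 213, 2202 and 350 cpm at P28 and at 798, 113, 4.52, 31.3, 21.8 and 9.55 cpm at P60, so that the highest and lowest library at P60 lay over 100 times apart and P28 replicate 3 was above every P60 library. Limma gave -3.43 (SE 1.03, adjusted p = 0.029) between the ages and edgeR -2.18 (adjusted p = 0.13), and without P60 replicates 3 to 6 the limma value was -0.51 (adjusted p = 0.9). Most of the other wide features were transcripts without a known product that were near P28 in replicates 1 and 2 and low in replicates 3 to 6. Dnm3os, the antisense host of the microRNAs Mir199a-2 and Mir214, stood at 41.2 to 46.6 cpm at P28 and at 47.9, 45.2, 8.78, 15.02, 25.7 and 24.9 cpm at P60, and LOC105247439 at 56.3 to 64.8 cpm and 68.2, 79.7, 17.1, 23.8, 28.4 and 33.0 cpm. The transcripts 6720482D04, D11Ertd726e, C79798, D5Wsu152e, D2Ertd127e, AU017193 and Angptl1, a secreted angiopoietin-like protein, were lowest in replicate 3 as well, at 0.878 to 5.27 cpm. Tcea2, an elongation factor, went the other way, with 3.25 to 4.66 cpm at P28, 4.98 and 2.11 cpm in P60 replicates 1 and 2, and 8.21 to 14.1 cpm in replicates 3 to 6.

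Other wide features did not follow that split. Eps8l1, an actin regulator of epithelia, varied at both ages, with 35.4, 21.9, 6.22 and 36.1 cpm at P28 and 9.97, 43.8, 14.6, 31.3, 73.9 and 31.6 cpm at P60. AA666905 and C130090J04 were highest in replicate 5, at 12.2 and 14.97 cpm, and lowest in replicate 3, at 1.76 and 2.13 cpm.

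Gh, the growth hormone gene, whose main known site is the anterior pituitary, was wide because it was present in part of the libraries (chr11:106300271-106301865, minus strand). It had 0 reads in the 4 P28 libraries, in P60 replicates 1 and 2 and in the other 17 libraries of the series, and 146, 234, 175 and 210 reads in P60 replicates 3 to 6, or 18.3, 25.9, 24.0 and 25.7 cpm. A count of 0 allows up to 3 reads, or 0.422 cpm in the shallowest of these libraries, and covers counting error only. Of a list of 14 anterior pituitary genes drawn up after Gh was seen, Pomc, the precursor of corticotropin, followed the same libraries, with 40, 57, 39 and 56 reads in replicates 3 to 6 and 0 to 6 reads in the other P28 and P60 libraries. Cga, the common subunit of pituitary glycoprotein hormones, had 4, 5, 2 and 3 reads there and 0 in the other P28 and P60 libraries. Ghrhr, the receptor that controls Gh release, had 0 to 3 reads in the same 4 libraries, and Pitx1, a pituitary transcription factor, 3 to 5 reads there and 0 or 1 in the other P28 and P60 libraries. In the other 17 libraries of the series Pitx1 had up to 8 reads, more than in these 4. Pomc had up to 8 reads there, Ghrhr up to 1 and Cga 0. The other listed genes had reads at P28 as well, over ranges that overlapped with these 4 libraries except for Trhr. Tshb had 0 to 10 reads at P28 and 1 to 9 in P60 replicates 3 to 6, Lhb 2 to 5 and 3 to 10, Pou1f1 1 to 5 and 3 to 14, and Lhx3 20 to 43 and 38 to 51. Trhr, the receptor of thyrotropin-releasing hormone, was lower in every P60 library, with 3 to 16 reads next to 17 to 22 at P28 (log2 fold change -0.84, SE 0.17, adjusted p = 0.0051, limma). Prl, Fshb and Gnrhr are not among the features listed. Where the Gh and Pomc reads came from was not tested.

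**Figure D5:**
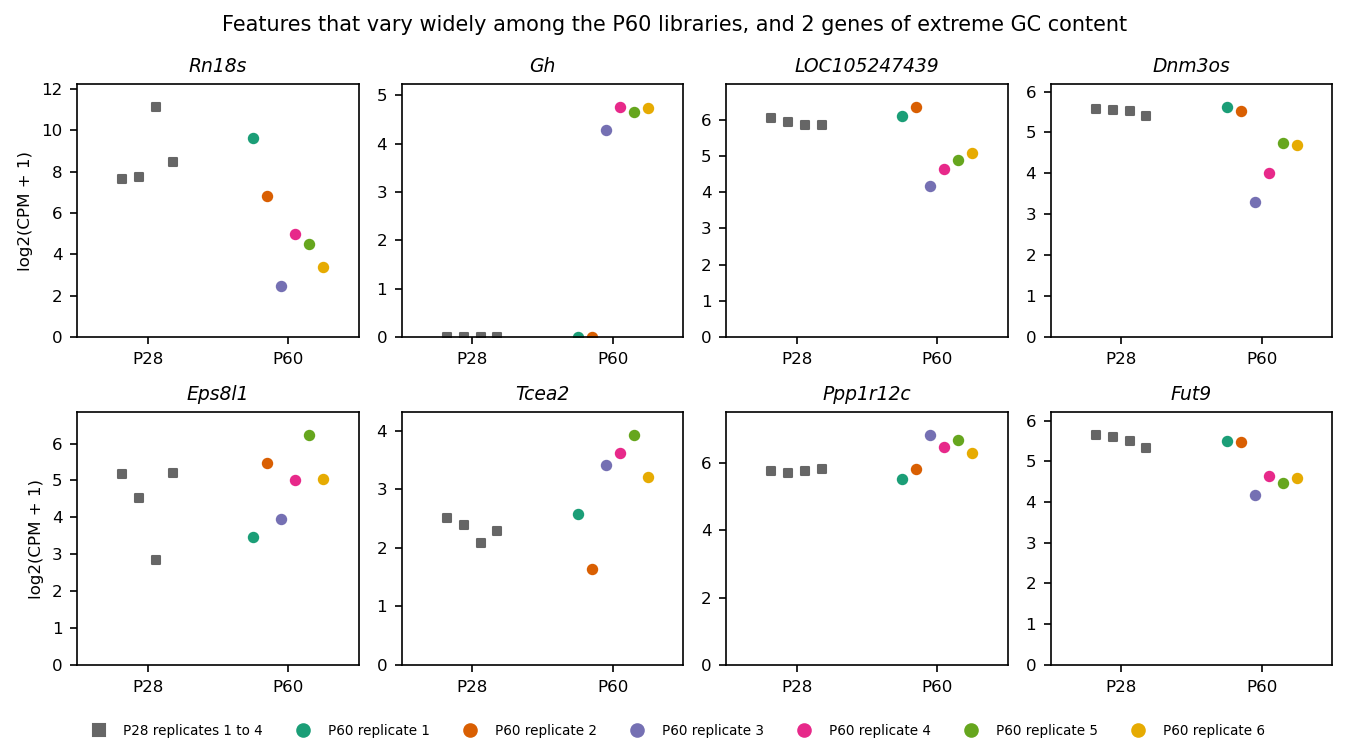
Log2(cpm + 1) of 8 features in each P28 library (squares) and each P60 library (circles, one color per replicate). Gh is at 0 except in P60 replicates 3 to 6, LOC105247439, Dnm3os and Fut9 are low in those 4 libraries, Ppp1r12c and Tcea2 are high in them, and Eps8l1 varies at both ages.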

How the data were processed

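The authors made libraries from whole-retina total RNA (SMARTer chemistry), sequenced them single-end and, per the labels, aligned the reads with STAR to mm10 (GRCm38). They deposited 1 table of CPM values for 38168 features in 27 libraries. The annotation behind the table and the use of strand in counting are not given in the sources used here. All CPM values (100.0%) were whole multiples of 1 read within a tolerance of 0.01. The recovered counts were used for edgeR, for the depth of the libraries and where reads of a gene are given. The edgeR fit left out E14 replicate 1 and tested 31672 features.

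Libraries were grouped by the age in their labels. The log2(CPM + 1) values of 31760 features that reached 1 CPM in 3 or more of the 27 libraries were fitted with limma 3.58.1 (R 4.3.3) with a mean-variance trend and age as the only term. P-values are two-sided, Benjamini-Hochberg adjusted over all features, and measure the spread between the libraries. Values understate the fold change of low features. Genes named are the 12 largest rises and 12 largest falls among features with a Gene ID (predicted genes named Gm and a number or ending in Rik left out), an adjusted p under 0.05, groups that do not overlap and a mean of at least 5 CPM at either age, the 15 features with the largest SD at P60 under the same limit on names, and members of lists. Where a symbol had several entries, that with the highest mean was used. Itsn2, Chst3, Sgk1, Ahrr, Rorb, Plxnb1, Pkd1, the genes whose sequence is shown and those of the 47 features called in each set of P60 libraries were chosen after their values were seen. The members and lists were chosen with earlier results of these data known. Of 15 genes of the mitochondrial genome, 0 are in the table, and of 14 small structural and ribosomal RNAs 2 were tested, of which Rn18s was lower.

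GC content and positions came from GENCODE M21, available for 17745 features (89.1% of those with a Gene ID). The correction removed, in each library, a spline in GC content (5 degrees of freedom) and length (3). Alternatives were a pseudocount of 0.1, other filters, a block for the replicate number, median-of-ratios scaling, edgeR 4.0.16, the 10 libraries alone, array weights and leaving out each library. The GC correction and the fits without P60 replicates 1 and 2 or 3 to 6 were added after seeing the data. On simulated reads with 200 features changed by 1.5 on the log2 scale, limma recovered 194 with 0 false calls past both thresholds and 11 past the adjusted p alone (30877 features), and edgeR 199 with 4 (30826 features). The simulated reads had the same spread at every age and no tilt with GC content. They therefore cannot give the rate of false calls for the real P60 libraries, which spread more and share that tilt in part. Libraries of 1 age differed by more than sampling noise in every pair. Python 3.11.15 with pandas 2.3.3 and matplotlib 3.10.9 was used for tables and plots. Some members of the lists are counted but not reported by name here. Human retina, organoids, isolated cones, knockout mice and physiology were not analyzed here.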

Additional observations from a re-analysis of the deposited data

Results flagged for a closer look

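Over 52 named genes at both ages (104 groups of 4 or 6 libraries), 4 single values lay far from the rest of their group by Dixon's test of the gap to the nearest library, and chance alone marks about 1 in 20 groups. Rn18s was marked at both ages, with 2202 cpm in P28 replicate 3 next to 203 to 350 cpm in the other P28 libraries and 798 cpm in P60 replicate 1 next to 4.52 to 113 cpm in the other P60 libraries. Lpar3 was low in P28 replicate 4, at 0.880 cpm next to 1.54 to 1.62 cpm. Itsn2 was high in P60 replicate 5, at 477 cpm next to 438 to 452 cpm, all of which lay above P28.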

How the results depend on the processing

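The count of 144 changed features was 756 with a pseudocount of 0.1, 69 with a mean of at least 10 cpm, 393 with edgeR, 3 with the 10 libraries alone and 4100 without a minimum fold change. It was 30 among features with a GC value and 20 after the GC correction. Leaving out single libraries gave 48 (without P60 replicate 3) to 465 (without P60 replicate 1), with 431 without P60 replicate 2, 94 without replicate 4 and 79 without replicate 5, and leaving out sets gave 1165 (P60 replicates 1 and 2) and 30 (replicates 3 to 6). Of edgeR's calls 45.04% were higher. The count of 1040 features shifted in all P60 libraries was 7 with the 10 libraries alone, 784 to 2263 without single libraries (the highest without P60 replicate 1, then 2141 without P60 replicate 2), 7696 without P60 replicates 1 and 2 and 147 without replicates 3 to 6. The 2211 wide features were 1076 at a mean of at least 10 cpm, 1308 without P60 replicates 1 and 2, 312 without replicates 3 to 6, and 421 among features with a GC value or 232 after the GC correction. Leaving out single P60 libraries gave 1458 to 2688 wide features, the lowest without replicate 3 and the highest without replicate 4. Without P60 replicates 3 to 6 the log2 fold change turned for 6720482D04 (0.0896), Dnm3os (0.0585), AU017193 (0.0393), LOC105247439 (0.31), Tcea2 (-0.21), Ppp1r12c (-0.0847), Per1 (-0.0179), Gnb3 (-0.15), Thra (-0.0171), Fn1 (-0.15) and Ddit4 (-0.0130), and the cause was not tested. Of the 10 fits that each left out 1 library, calls were lost without P28 replicate 1 for Stat2 and Egr2, without P28 replicate 2 for Hspg2, without P28 replicate 1 or 2 for Sag and Hmgcs1, and in 3 for Grk1, Arr3, Ebf3 and H2-K1, 4 for Per1 and Nr4a3, 5 for Nr1d1, Slc6a9, Slc17a6, Tfap2a, H2-D1 and Dnm3os, 6 for Gnb3, Hspa1a, Rbpms, Onecut1, Rxrb, AU017193, 6720482D04 and Malat1, 7 for Rn18s, Slc7a5, Ifi27, Cyp51, D5Wsu152e and Gas5, and 8 for Thra, Fn1, Col5a1, LOC105247439, Tcea2 and Ppp1r12c. Array weights, no filter, a filter on the 10 libraries and median-of-ratios scaling kept both counts within 1.5 times.

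With the replicate number as a block, 78 features were changed and 517 shifted in all P60 libraries. Deviations of libraries with the same number correlated at 0.03, 0.13, -0.08 and 0.12 for numbers 1 to 4, and none of the 4 matched its own number best, so the numbers were not taken as pairing.

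The number of libraries and their unlike spread at P60 limit these results. Pools, single animals and composition cannot be told apart there, and no batch is labelled. At 7099962 to 9050760 reads a library, features near 1 cpm rest on fewer than 10 reads.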
